A study of Rattus norvegicus with 15 samples.

Results

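The miR-183, miR-96 and miR-182 cluster was followed in small RNA libraries from the kidney cortex of PCK rats fed 3 levels of salt. The cluster was taken as every row with a rat name (prefix rno-) for miR-183, miR-96 or miR-182, on any arm, together with miR-3553, a name given to the opposite strand of the miR-183 gene. This gave 5 of the 600 names in the count table: rno-miR-182, rno-miR-183-5p, rno-miR-3553, rno-miR-96-5p and rno-miR-183-3p, written below without the prefix. All 5 were among the 519 names that passed the filter on low counts. No row for these miRNAs carried the name of another species.

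PCK rats (PCK/CrljCrlPkhd1pck/CRL) develop kidney cysts from a mutation of Pkhd1, the gene behind autosomal recessive polycystic kidney disease, and all 3 diet groups carried it. From 6 weeks of age they ate Dyets chow with 0.01%, 0.4% or 4% NaCl for 8 weeks, with no other treatment, and there were 5 libraries for each diet. The 0.4% diet served as the reference. The protocol describes pooling 2 to 3 rats, with 2 such pools for a condition, whereas each diet has 5 samples. Whether a library stands for 1 rat or several therefore cannot be said, and p-values cover the differences among libraries, which may be technical.

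The 3 miRNAs are cut from hairpins that lie close together and are transcribed as a unit in vertebrates. They are best known from sensory cells: photoreceptors and the hair cells of the inner ear express them strongly, and changes in the seed of miR-96 cause hearing loss in humans and in mice. In human cells miR-182 and miR-96 repress FOXO transcription factors, and the cluster is raised in many carcinomas. The seed, bases 2 to 8 of a mature miRNA, is the stretch that pairs with target mRNAs and largely sets which mRNAs are repressed.

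The mature sequences show how far the members could share targets and reads. They are printed 5′ to 3′ from RefSeq for rat (assembly GRCr8), with the seed in capitals.
miR-182: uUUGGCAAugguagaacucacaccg
miR-96-5p: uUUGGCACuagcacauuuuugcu
miR-183-5p: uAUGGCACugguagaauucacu
miR-183-3p: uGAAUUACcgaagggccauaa
miR-3553: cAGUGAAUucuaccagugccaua
The seeds of miR-182 and miR-96-5p were the same at 6 of 7 bases, as were those of miR-183-5p and miR-96-5p, while miR-182 and miR-183-5p had 5 of 7 seed bases in common. Aligned from base 1, miR-182 and miR-183-5p had 18 of 22 bases the same over the whole sequence, against 13 of 22 for miR-183-5p and miR-96-5p and 12 of 23 for miR-182 and miR-96-5p. Of the 356 tested names with a RefSeq sequence, no name besides the member itself had a member's bases 2 to 8. The other tested names, miR-1271 among them, were not compared. miR-3553 is not a relative of the others by seed: all 22 bases of miR-183-5p are the reverse complement of bases in miR-3553, which has 1 base more.

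The hairpins lie on rat chromosome 4 of GRCr8 between Nrf1 and Ube2h, and no other annotated gene overlaps them. On the minus strand are Mir182 at chr4:59752246-59752307, Mir96 at chr4:59755841-59755946 and Mir183 at chr4:59756044-59756153, a span of 3908 bases. Mir96 and Mir183 are 97 bases apart and Mir182 is 3533 bases from Mir96. Mir3553 is annotated on the plus strand at chr4:59756047-59756152, so that all 106 bases of its hairpin lie within that of Mir183. The 2 hairpins are shown because their overlap bears on the counts below, with the mature forms in capitals.
Mir183: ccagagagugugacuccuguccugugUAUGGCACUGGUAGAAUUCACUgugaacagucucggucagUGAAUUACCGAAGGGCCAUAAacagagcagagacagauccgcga
Mir3553: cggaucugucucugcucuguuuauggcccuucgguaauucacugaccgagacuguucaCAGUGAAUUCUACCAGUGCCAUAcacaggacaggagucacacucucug

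Libraries held 4.17 to 7.83 M reads counted to miRNA names. By diet the range was 5.77 to 7.83 M on 0.01%, 4.79 to 7.38 M on 0.4% and 4.17 to 5.42 M on 4% NaCl. Depth therefore cannot be told apart from diet between 0.01% and 4% NaCl. Levels below are scaled CPM, the reads of a name per 1e+06 reads, with library sizes scaled by edgeR's TMM factors. Those factors did not overlap between these diets either, at 0.781 to 1.01 on 0.01% and 1.03 to 1.11 on 4% NaCl. All 7 listed markers of kidney tubule were present, with means over the 15 libraries of 276919 CPM for miR-10a-5p, 58306 CPM for miR-30a-5p and 51514 CPM for miR-192-5p. The rest were lower, at 2053 CPM for miR-194-5p, 592 CPM for miR-204-5p, 64.9 CPM for miR-10b-5p and 8.70 CPM for miR-215.

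miR-182 dominated the cluster. Over the 15 libraries it averaged 3629 CPM, the 30th most abundant of the 519 tested names, against 267 CPM for miR-183-5p, 233 CPM for miR-3553, 16.3 CPM for miR-96-5p and 3.17 CPM for miR-183-3p. This order of levels was the same in 15 of 15 libraries. Mature miRNAs are of nearly equal length, but ligation in library making differs between sequences, so the order is one of read counts. The mean of 20855 reads for miR-182 and the mean of 18 reads for miR-183-3p set very different precision.

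miR-182 stood at 3453, 2823, 2059, 3325 and 3619.8 CPM in libraries 1 to 5 of the 0.01% diet, at 9423, 4912, 2810.0, 4271 and 679 CPM in those of the 0.4% diet, and at 2169.8, 4161, 6106, 1535 and 3081 CPM in those of the 4% diet. The highest and the lowest of all 15 values were both 0.4% libraries, so the values of that diet enclosed those of the other diets. Group means were 3056 ± 631 CPM on 0.01%, 4419 ± 3236 CPM on 0.4% and 3411 ± 1802 CPM on 4% NaCl (SD, n = 5 each). Within the 0.4% diet library 1 held 13.9 times the level of library 5. In bulk cortex, fewer cells that make a miRNA and less of it per cell cannot be told apart.

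miR-183-5p, the more abundant arm of the miR-183 hairpin, followed the same libraries. Its level was 273, 178, 143, 208 and 356 CPM on 0.01%, 611, 311, 216, 336 and 48.8 CPM on 0.4%, and 178, 264, 494, 126 and 258 CPM on 4% NaCl. Again 0.4% library 1 was the highest and 0.4% library 5 the lowest, 12.5 times apart. Means were 232 ± 84.3, 305 ± 205 and 264 ± 141 CPM from the lowest salt to the highest (SD, n = 5 each).

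miR-96-5p, whose seed underlies the hearing phenotypes named above, was a low-abundance member with 20 to 186 reads per library. It stood at 18.2, 11.4, 6.66, 11.8 and 20.3 CPM on 0.01%, at 33.7, 17.5, 11.8, 21.9 and 3.25 CPM on 0.4%, and at 9.79, 22.0, 33.0, 8.48 and 14.7 CPM on 4% NaCl. The groups overlapped throughout, and 0.4% libraries 1 and 5 were once more the extremes, the former by 186 reads against 181 in 4% library 3. Means were 13.7 ± 5.53, 17.6 ± 11.4 and 17.6 ± 10.1 CPM from the lowest salt to the highest (SD, n = 5 each).

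miR-183-3p, the other arm of the miR-183 hairpin, had 5 to 38 reads per library. It measured 3.25, 2.76, 2.50, 2.63 and 2.78 CPM on 0.01%, 6.88, 2.67, 3.61, 5.25 and 0.975 CPM on 0.4%, and 1.40, 3.39, 5.83, 1.09 and 2.59 CPM on 4% NaCl. Its low reads carry wide counting error: the 5 reads of 4% library 4 have an exact 95% Poisson interval of 1.62 to 11.7 reads, which covers counting error only. miR-3553 ranged from 42.1 to 531 CPM, with the same libraries at the ends as miR-183-5p.

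**Figure D1:**
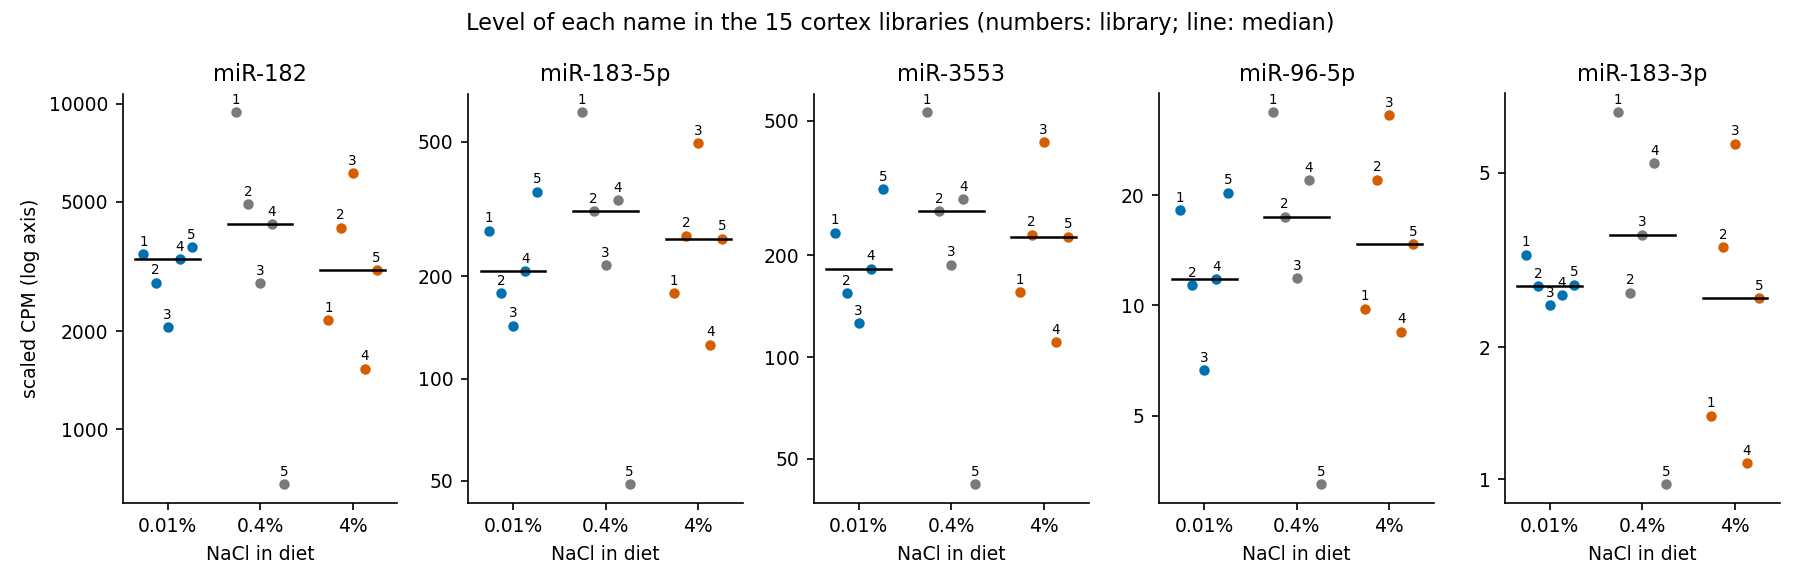
Level of each of the 5 names in scaled CPM (log axis, a separate range for each name) by NaCl in the diet; each point is a library with its number and the line is the median of 5. In every panel 0.4% library 1 is at the top and 0.4% library 5 at the bottom, for miR-182 at 9423 and 679 CPM, and the 3 diets overlap. Within counting error are the top of miR-96-5p (186 reads, against 181 in 4% library 3) and the bottom of miR-183-3p (6 reads, against 5 in 4% library 4).

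No member passed the threshold between any diets, an adjusted p under 0.05 in edgeR's quasi-likelihood test with Benjamini-Hochberg adjustment over the 519 names. For 0.01% against 0.4% NaCl, where 87 of all 519 names were called (16.8%; 7.71% higher and 9.06% lower), 0 of the 5 members passed. At an unadjusted p under 0.05 there were 163 names (31.4%) and again 0 members. The log2 fold change of miR-182 was -0.53 ± 0.51 (SE, edgeR adjusted p = 0.506), a fold of 0.692 with a 95% interval of 0.326 to 1.47. The other members lay between -0.47 for miR-183-3p and -0.37 for miR-96-5p, with adjusted p of 0.509 to 0.646 in the same test. The intervals leave room for a change of more than 2-fold downward, and the absence of a call does not show equal levels.

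In the comparison of 4% with 0.4% NaCl 0 of the 519 names were called by edgeR (0%), by DESeq2 or by limma-voom, with 27 names (5.2%) and 0 members at an unadjusted edgeR p under 0.05. miR-182 had a log2 fold change of -0.37 ± 0.51 (SE, edgeR adjusted p = 0.981), miR-183-5p one of -0.21 ± 0.50 and miR-183-3p one of -0.42 ± 0.45. That of miR-96-5p was 0.00037 ± 0.50, with an interval of -1.08 to 1.08. These intervals span about the same range as in the other contrasts, since the spread comes from the same fit.

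For 0.01% against 4% NaCl, in which 106 of 519 names were called (20.4%; 7.32% higher and 13.1% lower), 0 of the 5 members passed either, and 185 names (35.6%) but 0 members had an unadjusted p under 0.05. The log2 fold change was -0.16 ± 0.50 for miR-182, -0.19 ± 0.50 for miR-183-5p, -0.37 ± 0.51 for miR-96-5p and -0.051 ± 0.46 for miR-183-3p (SE, edgeR adjusted p of 0.670 to 0.946). A joint edgeR test of any diet difference gave adjusted p of 0.712 to 0.854 for the 5 members, where 85 of 519 names passed (16.4%). In all 3 contrasts the libraries of the 2 diets overlapped for every member, while 75 names (14.5%), 4 names (0.771%) and 76 names (14.6%) did not overlap in the order given here.

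**Figure D2:**
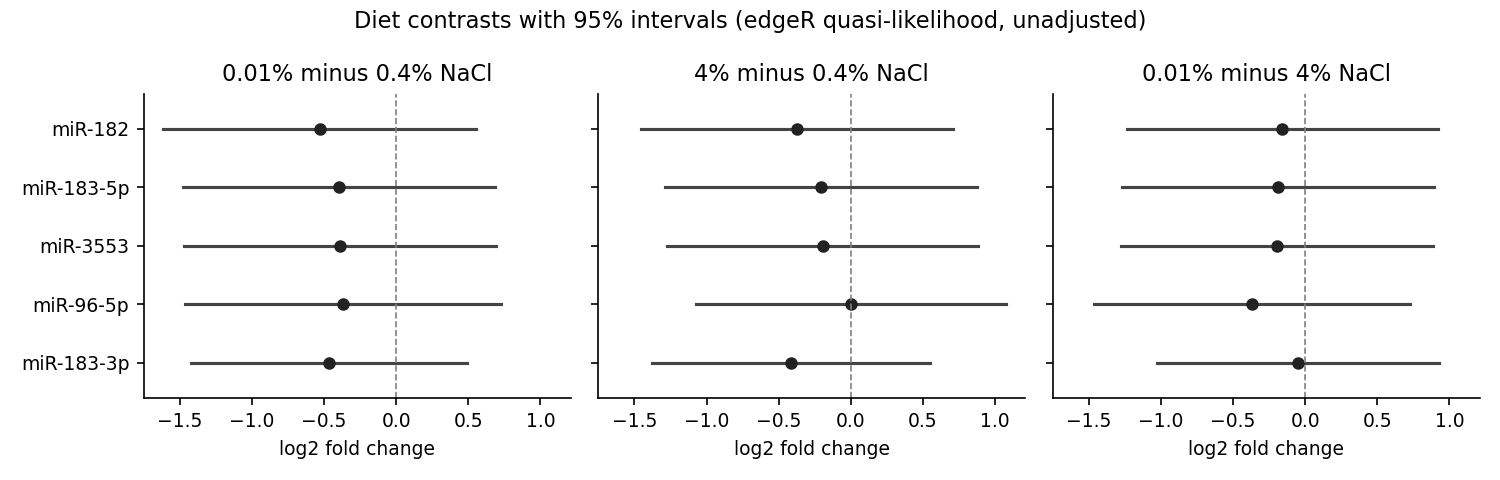
Log2 fold change of each name (x axis) in the 3 diet contrasts, tested diet minus its reference, with the 95% interval of the edgeR fit as a line. All 15 intervals cross 0; for miR-182 they run from -1.62 to 0.55, from -1.46 to 0.71 and from -1.24 to 0.92, from left to right.

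Single libraries set these point estimates. Without 0.4% library 1 the log2 fold change of miR-182 was -0.066 for 0.01% against 0.4% NaCl and 0.12 for 4% against 0.4% NaCl, and without 0.4% library 5 it was -0.83 and -0.64. Without 4% library 3 the value for 0.01% against 4% NaCl was 0.13. The tool and the scaling moved the values as well: limma-voom gave miR-182 a log2 fold change of -0.13 for 0.01% against 0.4% NaCl, and library totals alone gave it -0.39 for 0.01% against 4% NaCl. No member was called in any of these refits, in which the lowest edgeR adjusted p was 0.189.

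In the authors' deposited tables from DESeq2 and edgeR, none of the 30 adjusted p-values for the 5 names over the 3 contrasts was under 0.05, and the lowest was 0.527. Those tables run the other way round, as 0.4% over 0.01%, 0.4% over 4% and 4% over 0.01% NaCl. The authors' deposited edgeR table lists miR-182 at a log2 fold change of 0.50 for 0.4% over 0.01% NaCl.

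The members spread widely between libraries of the same diet. The SD of log2 CPM within a diet, pooled over the 3 diets, was 0.952 for miR-182, 0.945 for miR-3553, 0.945 for miR-183-5p, 0.944 for miR-96-5p and 0.817 for miR-183-3p. Over the 243 rat names averaging 100 reads or more the median was 0.253 and the 90th percentile 0.485, and miR-182, miR-3553 and miR-183-5p held ranks 1 to 3. The next names were miR-146b-5p at 0.758, miR-132-3p at 0.753 and miR-205 at 0.725. Names outside this set spread as widely or more. miR-451-5p, just under the cut at a mean of 90.5 reads, had 0.974, and the human name hsa-miR-3168 had 2.07 at a mean of 2117 reads. Counting alone would give an SD of 0.0121 for miR-182 and 0.0443 for miR-183-5p, against 0.179 for miR-96-5p and 0.396 for miR-183-3p.

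This spread was unequal between diets. For miR-182 the SD of log2 CPM was 0.331 on 0.01%, 1.42 on 0.4% and 0.779 on 4% NaCl, and for miR-183-5p it was 0.515, 1.37 and 0.736 in the same order; whether the diets differ in spread was not tested. Without 0.4% library 5 the pooled SD was 0.635 for miR-182, 0.631 for miR-183-5p and 0.630 for miR-3553, which held ranks 4 to 6 against a median of 0.237.

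**Figure D3:**
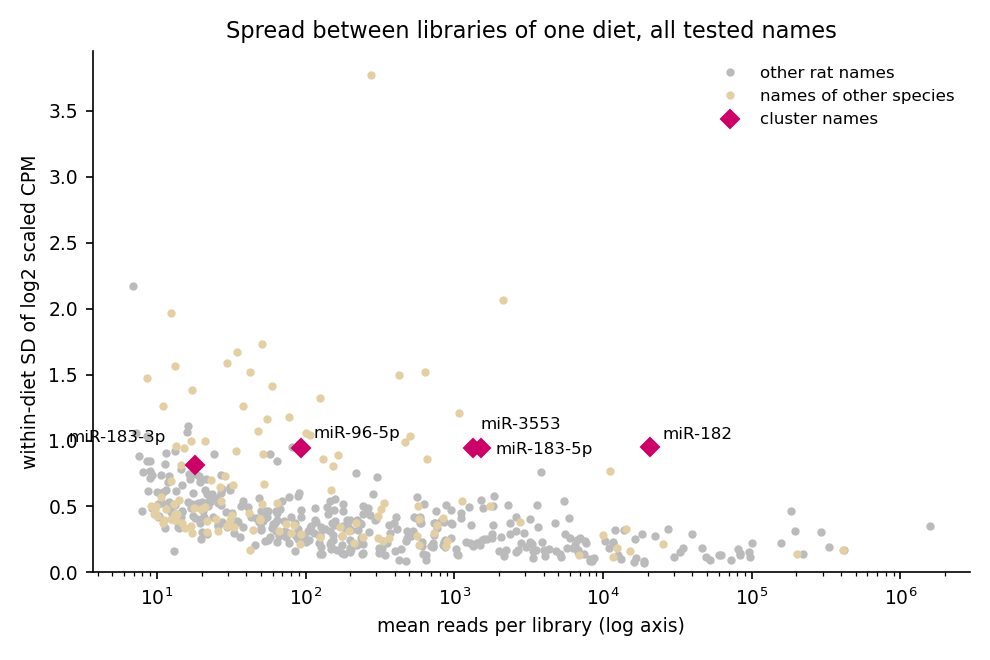
Within-diet SD of log2 scaled CPM (y axis) against mean reads per library (x axis, log scale) for the 519 tested names, with rat names in grey, names of other species in tan and the 5 cluster names as diamonds. miR-182 lies at 0.952 at a mean of 20855 reads, above every other rat name with a mean of 100 reads or more, whose median is 0.253.

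Marker sums moved between the extreme libraries as well. From 0.4% library 1 to 0.4% library 5 the summed level of the 7 kidney tubule miRNAs was 450120 and 275830 CPM, that of 6 smooth muscle and fibroblast miRNAs 36782 and 21034 CPM, that of 2 endothelial miRNAs 12981 and 10771 CPM, and that of 5 leukocyte miRNAs 1682 and 1753 CPM. The 3 red blood cell miRNAs summed to 31.7 and 5.85 CPM, and the 4 of 5 neural miRNAs in the table to 430 and 320 CPM. Most of the tubule sum was miR-10a-5p and most of the smooth muscle and fibroblast sum miR-143-3p, with means over all libraries of 276919 and 34062 CPM. No marker in the table was at 0 in any library, and the lowest value was 0.491 CPM, for miR-144-5p. Over the 5 libraries of each diet the tubule sum ranged from 354261 to 653741 CPM on 0.01%, from 268642 to 461981 CPM on 0.4% and from 316650 to 388426 CPM on 4% NaCl. The leukocyte sum ranged from 1879 to 2434 CPM, from 1608 to 2733 CPM and from 1576 to 4472 CPM in the same order. The part of any of these in the spread of the cluster was not tested.

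Although miR-182 varied 13.9-fold between libraries, the members kept narrow proportions. miR-182 had 10.2 to 16.0 times the reads of miR-183-5p (median 13.0), and the log2 ratio had an SD of 0.197 over the 15 libraries where counting alone would give 0.0459. miR-96-5p had 4.65% to 8.34% of the reads of miR-183-5p (median 5.70%), with an SD of 0.199 against 0.185 from counting. For miR-96-5p over miR-182 the range was 0.323% to 0.561% and the SD 0.270 against 0.180. The ratio of miR-182 to miR-183-5p thus varied beyond counting error, and that of miR-96-5p to miR-183-5p by little more than counting error. Within the 0.01% diet alone, the level of miR-182 had an SD of only 0.331 on the log2 scale. There the SD of the log2 ratio was 0.272 for miR-182 over miR-183-5p and 0.345 for miR-96-5p over miR-182. For miR-96-5p over miR-183-5p it was 0.198, against 0.515 for the level of miR-183-5p.

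The 2 arms of the miR-183 hairpin were used very unequally. miR-183-3p had 0.781% to 2.0% of the reads of miR-183-5p (median 1.19%), with an SD of 0.432 on the log2 scale against 0.398 from counting. The log2 ratio of the arms differed by -0.44 for 4% against 0.4% NaCl (exact permutation p = 0.127, adjusted p = 0.492), by -0.14 for 0.01% against 0.4% NaCl and by 0.30 for 0.01% against 4% NaCl, none of which passed.

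miR-3553 had 85.6% to 88.2% of the reads of miR-183-5p in all 15 libraries (median 87.2%). The SD of that log2 ratio was 0.0121, below the 0.0649 that 2 independent counts of this size would give. The sequences above are complementary over all 22 bases of miR-183-5p. Whether the authors' counting used strand is not given in the sources used here, so reads of the 2 names cannot be told apart. With so small an SD the 2 names did not vary as independent counts, and the values of miR-3553 are not those of a separate miRNA. In the counts, ranks and tests over 5 names, miR-3553 therefore adds no result beyond that of miR-183-5p.

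None of 6 ratios between members passed the test between diets. In 18 exact two-sided permutation tests on log2 ratios, 6 ratios in 3 contrasts with 5 libraries on each side, the lowest Benjamini-Hochberg adjusted p was 0.143. A single ratio that separated the diets completely could reach no lower value than that, so these tests could not have called 1 ratio alone, and they do not show equal ratios. That value belonged to miR-3553 over miR-183-5p, whose log2 ratio was 0.014 higher on 4% than on 0.4% NaCl. Its unadjusted exact permutation p was 0.00794, the smallest that 126 splits can give. As the reads of these names cannot be told apart, that test cannot speak to proportions between miRNAs. No diet difference is read from it. For miR-96-5p over miR-182, 4% against 0.4% NaCl gave a difference of 0.27 on the log2 scale, with an exact permutation p of 0.0714 and an adjusted p of 0.492.

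**Figure D4:**
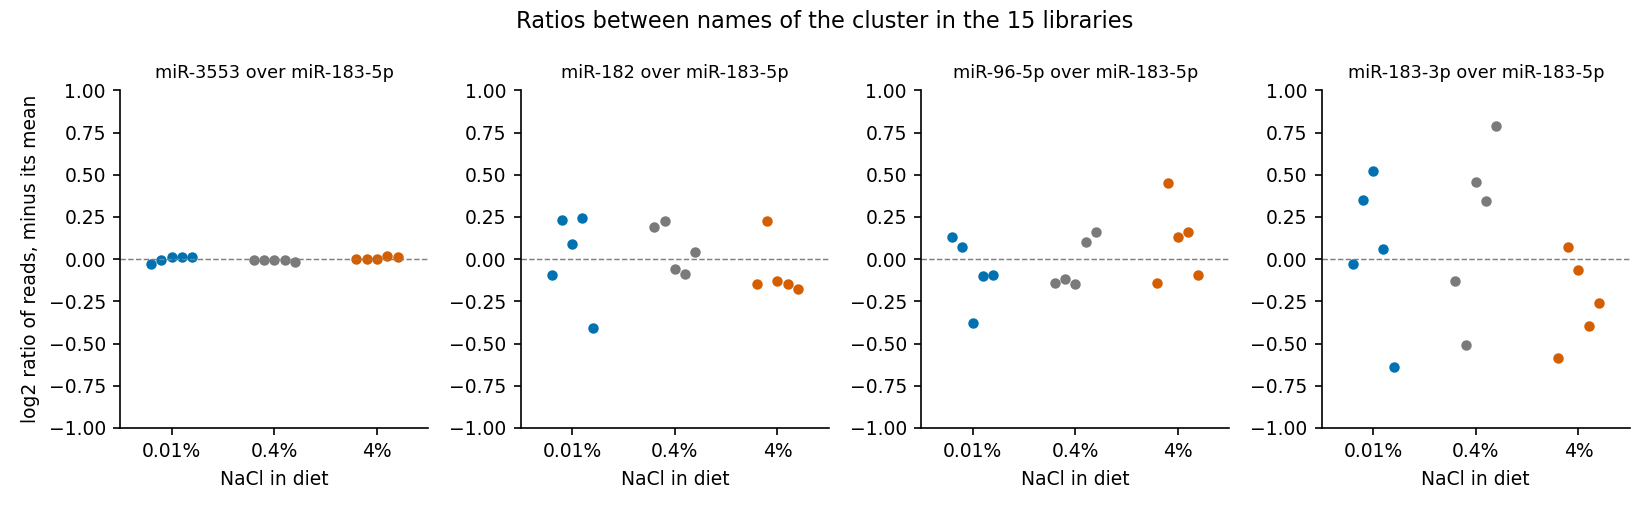
Log2 ratio of reads of 4 pairs of names, each minus its mean over the 15 libraries (y axis), by NaCl in the diet; each point is a library. The ratio of miR-3553 to miR-183-5p stays within 85.6% to 88.2% of reads, whereas miR-182 over miR-183-5p runs from 10.2 to 16.0.

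For each member, the names outside the cluster with the steadiest ratio to it were less close than the other members were. Likeness was measured as the SD over the 15 libraries of the log2 ratio of 2 names, and it was 0.196 between miR-182 and miR-183-5p, 0.199 between miR-183-5p and miR-96-5p and 0.269 between miR-182 and miR-96-5p. For the low counts of miR-183-3p it was 0.400 to miR-182, 0.434 to miR-183-5p, 0.439 to miR-3553 and 0.460 to miR-96-5p. Of the 240 other rat names that averaged 100 reads or more, the nearest to miR-182 were miR-3585-5p at 0.658, miR-326-3p at 0.667 and miR-3574 at 0.681. Those nearest to miR-183-5p were miR-326-3p at 0.622, miR-708-3p at 0.630 and miR-3585-5p at 0.644, and those to miR-96-5p were miR-3585-5p at 0.607, miR-3574 at 0.651 and miR-326-3p at 0.660. For miR-183-3p they were miR-326-3p at 0.537, miR-3574 at 0.567 and miR-210-3p, a miRNA induced by hypoxia, at 0.572. The median over the 240 names was 0.937 for miR-182 and 0.924 for miR-183-5p. A name that did not vary at all would score the member's own SD, 0.883 for miR-182 and 0.876 for miR-183-5p. miR-3574 and miR-326-3p varied much less than the members, with SDs of 0.305 and 0.394.

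These nearest names were picked for a steady ratio to a member in the same 15 libraries. Extremes in common with the cluster are favoured by that choice and are no separate support. Within the 0.4% diet miR-3585-5p had its highest and lowest libraries in common with the cluster, with 166 CPM in library 1 and 62.7 CPM in library 5. Over all 15 libraries its extremes were others, 223 CPM in 4% library 3 and 45.3 CPM in 0.01% library 2. miR-326-3p stood at 70.8 CPM in 0.4% library 1, 31.4 CPM in 0.4% library 5 and 69.6 CPM in 4% library 3, but was highest in 0.01% library 5 at 79.7 CPM. These gaps were smaller than that of miR-182, and none of these neighbouring names was called in any contrast. The nearest to a call was miR-3585-5p for 0.01% against 4% NaCl, with a log2 fold change of -0.82 ± 0.30 (SE, edgeR adjusted p = 0.0604).

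**Figure D5:**
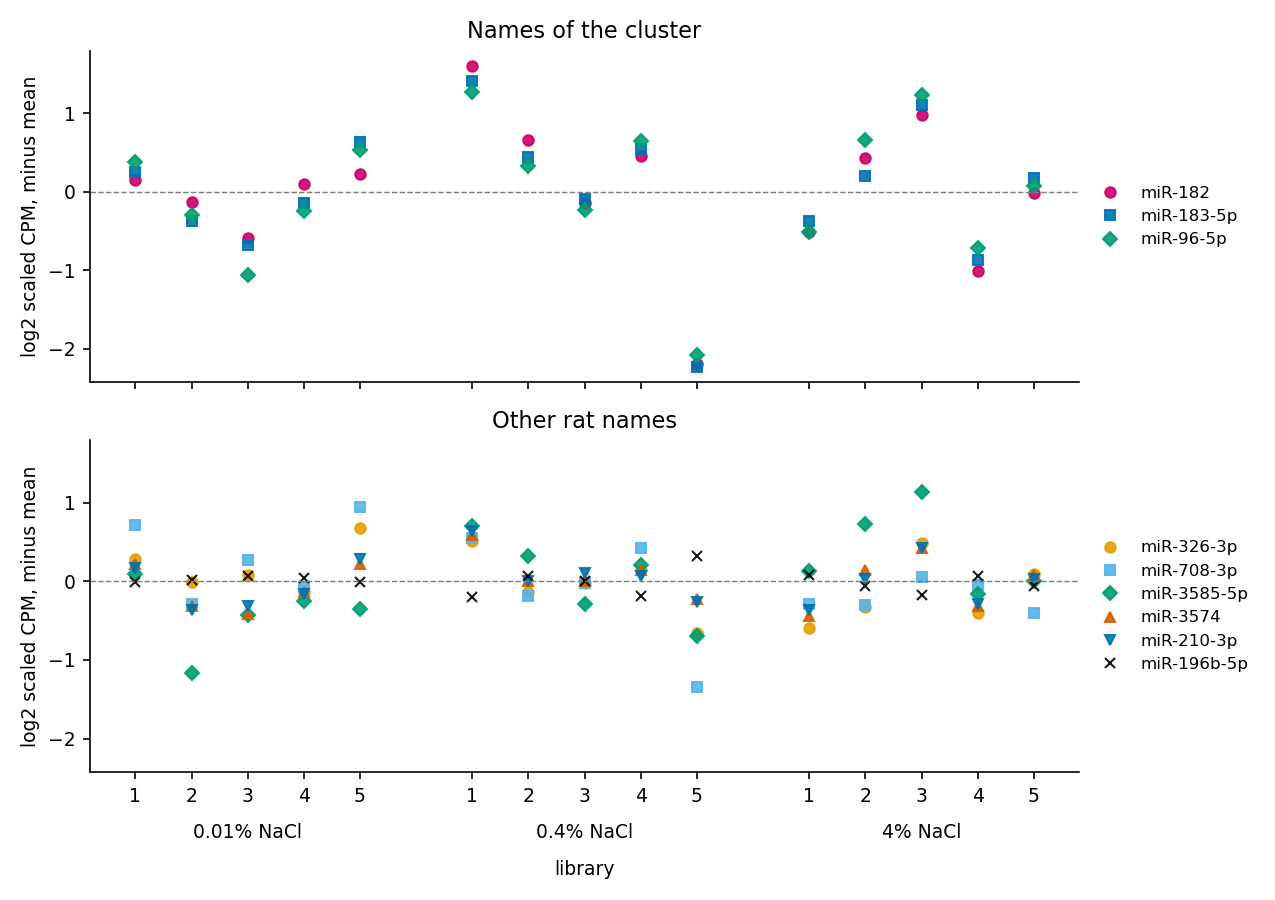
Log2 scaled CPM of each name minus its mean over the 15 libraries (y axis), by library within each diet (x axis), for 3 cluster names above and for 6 other rat names below on the same scale. In the upper panel miR-182, miR-183-5p and miR-96-5p lie close together in each library and fall lowest in 0.4% library 5, where miR-182 stood at 679 CPM; miR-196b-5p was added after its values were seen.

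Lists of miRNAs that share a known setting with the cluster were counted beside it and read against the share of all 519 names called. Of 8 tested sensory and retinal miRNAs, 1 rose and 1 fell on 0.01% against 0.4% NaCl, where 7.71% of all names rose and 9.06% fell, with a median log2 fold change of 0.20 against -0.0027 over all 519 names. miR-9a-5p, known from neural progenitors, rose to 445 ± 116 CPM on 0.01%, against 188 ± 71.1 CPM on 0.4% NaCl (log2 fold change 1.25 ± 0.27, edgeR adjusted p = 0.00513). miR-184, known from the cornea, fell to 6.28 ± 0.420 CPM on 0.01%, against 15.6 ± 5.78 CPM on 0.4% NaCl (log2 fold change -1.31 ± 0.34, edgeR adjusted p = 0.0118). The same 2 names were called for 0.01% against 4% NaCl, at 1.24 and -2.11 on the log2 scale, where 20.4% of all names were called, and 0 of 8 for 4% against 0.4% NaCl. In the 2 contrasts with the 0.01% diet the sum of the 6 smooth muscle and fibroblast miRNAs also stood apart. It was 44116 to 76339 CPM on 0.01%, against 21034 to 38589 CPM on 0.4% and 25774 to 32959 CPM on 4% NaCl. Most of it was miR-143-3p, with a mean over all libraries of 34062 CPM, and miR-199a-3p came next at 2424 CPM. The sum therefore does not show that the other miRNAs of the list stood apart. Its part in these calls was not tested.

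Of 6 epithelial identity miRNAs, whose miR-200 members hold down the Zeb repressors of epithelial genes, 3 rose and 0 fell on 0.01% against 0.4% NaCl, where 7.71% of all names rose and 9.06% fell, with a median log2 fold change of 0.60 against -0.0027 over all names. They were miR-205, at 1.81 ± 0.40 (SE, edgeR adjusted p = 0.00558), miR-200c-3p at 1.17 ± 0.24 and miR-141-3p at 1.04 ± 0.20. Not called were the other miR-200 members, miR-429 at 0.16 ± 0.11, miR-200a-3p at 0.088 ± 0.10 and miR-200b-3p at 0.036 ± 0.093. The median of 0.60 thus falls in a gap between the called and the uncalled names. The list had 3 called names, all higher, for 0.01% against 4% NaCl (median 0.52), where 7.32% of all names were higher and 13.1% lower, and 0 for 4% against 0.4% NaCl (median 0.044). Of 9 tested miRNAs besides the cluster that target FoxO mRNAs, 2 rose and 0 fell on 0.01% against 0.4% NaCl (median 0.78; 16.8% of all names called), miR-9a-5p and miR-21-5p, with miR-21-5p, a miRNA known from kidney fibrosis, at 0.83 ± 0.26 (SE, edgeR adjusted p = 0.0362). There were 2 called names for 0.01% against 4% NaCl, both higher (median 0.42; 20.4% of all names called), and 0 for 4% against 0.4% NaCl (median -0.045). With so few names in each list, nothing particular to a list is read from these counts.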

How the data were processed

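Small RNA from kidney cortex was sequenced on an Illumina HiSeq after TruSeq small RNA library construction, per the labels' protocols. The authors used cutadapt, Bowtie and DESeq, per the submitters' processing notes; no source used here gives the genome build, the miRNA database, the use of strand or how reads matching more than 1 name were counted. The authors deposited raw counts of reads per mature name, and tables of log2 fold changes and p-values from DESeq2 and edgeR, per the file headers. In those tables, 90 per-sample columns were not used. Samples were grouped by diet. Within diets, all 30 pairs of libraries differed by more than sampling noise (chi-square per degree of freedom of at least 27.4).

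Counts were tested with edgeR 4.0.16 (R 4.3.3; TMM, filterByExpr, robust quasi-likelihood, 3 diet means, 12 residual degrees of freedom), with Benjamini-Hochberg adjustment over 519 names and a threshold of 0.05; 81 names were filtered out. The test was checked on simulated counts in which each name had the same spread in all diets. That check cannot speak to names whose spread differs between diets, as that of the members did. Ratios used reads plus 0.5. DESeq2 1.42.0 and limma-voom (limma 3.58.1), other scalings, filters and leaving out each library were alternatives. Named were all members, for each member the 3 rat names (mean of at least 100 reads) with the smallest SD of the log2 ratio, and up to 4 called names per list. The members and lists were chosen with earlier results of these data known. Sequences were matched by name to RefSeq (GRCr8).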

Additional observations from a re-analysis of the deposited data

Results flagged for a closer look

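Both results below concern 4% library 2, and chance flags about 1 in 20 groups, of which 33 were tested. The log2 ratio of miR-182 over miR-183-5p was 3.98 there, far from the other 4 libraries of the 4% diet: miR-182 had 15.8 times the reads of miR-183-5p, against 11.9 to 12.4 times in those 4. The log2 ratio of miR-3553 over miR-182 was -4.18 in the same library, again far from the other 4. As miR-3553 kept a fixed proportion to miR-183-5p, the 2 results are not independent. The ratio of 4% library 2 lies within the range of 10.2 to 16.0 seen over all 15 libraries.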

How the results depend on the processing

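Across 399 refits of the 15 fold changes of members, 0 passed the threshold (lowest adjusted p 0.189) and 27 changed sign. For 4% against 0.4% NaCl, limma-voom gave miR-183-5p 0.045 and miR-3553 0.058, and the log2 fold change of miR-96-5p, near 0, was -0.018 with DESeq2 size factors, -0.00090 with upper-quartile scaling, -0.0049 without a filter, -0.0042 with a filter at 10 CPM, -0.021 in DESeq2, -0.018 without the 5 most abundant names, -0.0062 without names of other species and -0.011 with the 2 diets alone. For 0.01% against 4% NaCl, limma-voom gave miR-183-3p 0.17. The cause was not tested. The filter at 10 CPM, which tests fewer names, left 55 names called for 0.01% against 0.4% NaCl (87 otherwise); miR-183-3p has no value there. Scaling by library totals alone moved the median of all names to -0.19 and -0.25 for 0.01% against 0.4% and against 4% NaCl, and no sign of a member turned. Over the settings that keep all libraries, values for 0.01% against 0.4% NaCl ran from -0.67 to -0.13 for miR-182, -0.57 to -0.074 for miR-183-5p, -0.56 to -0.066 for miR-3553, -0.55 to -0.12 for miR-96-5p and -0.63 to -0.19 for miR-183-3p, limma-voom giving the smallest and library totals the greatest change; for 0.01% against 4% NaCl they ran from -0.39 to -0.029, -0.44 to -0.12, -0.45 to -0.12, -0.62 to -0.31 and -0.28 to 0.17.

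Leaving out 1 library at a time gave these ranges. For 0.01% against 0.4% NaCl they were -0.83 to -0.066 for miR-182, -0.69 to 0.0069 for miR-183-5p, -0.68 to 0.013 for miR-3553, -0.65 to -0.012 for miR-96-5p and -0.73 to -0.17 for miR-183-3p, with 69 to 107 names called. For 4% against 0.4% NaCl they were -0.68 to 0.12, -0.55 to 0.22, -0.54 to 0.23, -0.34 to 0.38 and -0.83 to -0.092, with 0 called. For 0.01% against 4% NaCl they were -0.35 to 0.13, -0.42 to 0.14, -0.43 to 0.13, -0.58 to -0.040 and -0.26 to 0.35, with 74 to 123 called. For log2 ratios in 0.01% against 0.4% NaCl they were -0.095 to 0.032 for miR-96-5p over miR-183-5p, -0.11 to 0.055 for miR-182 over miR-183-5p, -0.093 to 0.10 for miR-96-5p over miR-182, -0.051 to 0.11 for miR-3553 over miR-182 and -0.31 to 0.037 for miR-183-3p over miR-183-5p, and for miR-3553 over miR-183-5p in 0.01% against 4% NaCl they were -0.0099 to 0.00058. No paired analysis was possible because the labels number no replicates. The ratios to miR-183-5p of miR-3553 and miR-183-3p, and the spread without 1 library, were chosen after seeing the data. Counting error is widest for miR-183-3p and miR-96-5p.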

Other observations

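miR-196b-5p, from the Hoxa gene cluster and named here after its values were seen, was opposite to the cluster in its extreme libraries. It stood at 1118 CPM in 0.4% library 5 and 784 CPM in 0.4% library 1, and at 793 CPM in 4% library 3 and 943 CPM in 4% library 4, where the cluster was lowest, highest, highest and lowest within its diet. Its own highest 4% library was library 1, at 946 CPM. How many other names were opposite to the cluster in this way was not counted.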
